A study of Mus musculus with 6 samples.

Results

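Kctd13 is one of the genes of the segment that is duplicated in 16p11.2 duplication mice, and it was examined here with 9 genes of the pathway it belongs to: its paralogs Kctd10 and Tnfaip1, the ubiquitin ligase genes Cul3 and Rbx1, the small GTPase gene Rhoa, and Rock1, Rock2, Limk1 and Ssh2 of the RhoA effector arm. These 10 genes were taken by symbol from 45476 named genes, and all 10 were among the 15401 genes that had enough counts to be tested. RNA was sequenced from homogenate of the prefrontal cortex of mice at postnatal week 8. The 6 libraries were 3 labelled 16p11.2 duplication (heterozygous) and 3 labelled wild type. The duplication line was made on a hybrid C57BL/6N:129Sv background, crossed back to C57BL/6 for 10 generations and kept on C57BL/6. No agent or transgene is named for either group, and the labels do not say whether a library came from a single animal.

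Kctd13, Kctd10 and Tnfaip1 encode the BACURD proteins, adaptors whose BTB domain binds the scaffold protein CUL3 and which present substrates to it. RBX1 is the RING subunit that brings the ubiquitin-conjugating enzyme to the cullin. RhoA is the best known BACURD substrate. In its GTP-bound form it activates the kinases ROCK1 and ROCK2, these activate LIM kinases such as LIMK1, and LIM kinases inactivate the actin-severing protein cofilin, which the slingshot phosphatases, SSH2 among them, activate again. In neurons this pathway acts on the actin of dendrites, spines and growing axons, and KCTD13 has been studied as a candidate gene of the 16p11.2 region.

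The paralogs are close in coding sequence, so whether reads could be split between them was checked first. The 90 coding bases below are the gap-free stretch most alike in the 3 genes, in lower case where all 3 share the base and in capitals at positions where they do not. They were read from GENCODE transcripts of build mm10 and are written 5′ to 3′ on the coding strand.
Kctd13, chr7:126942253-126942342, plus strand: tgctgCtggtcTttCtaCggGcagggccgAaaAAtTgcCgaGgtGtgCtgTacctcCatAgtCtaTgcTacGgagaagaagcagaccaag
Kctd10, chr5:114367209-114367298, minus strand: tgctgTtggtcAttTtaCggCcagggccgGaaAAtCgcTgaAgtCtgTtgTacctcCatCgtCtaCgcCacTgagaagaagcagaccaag
Tnfaip1, chr11:78527526-78527615, minus strand: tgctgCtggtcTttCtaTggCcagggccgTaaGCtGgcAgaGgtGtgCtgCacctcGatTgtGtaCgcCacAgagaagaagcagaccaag

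All 3 genes shared 70 of these 90 bases (77.8%), and 19 of the 20 positions that differed were at the last base of a codon. Over the aligned coding sequence Kctd13 was identical to Kctd10 at 71.3% of bases and to Tnfaip1 at 69.7%, and Kctd10 to Tnfaip1 at 73.1%. The longest identical run between any pair of the 3 was 29 bases, and none of the 10 genes shared a run of 50 bases with another of the 10. Some did share such runs with genes outside the set. Kctd10 shared 46.9% of the 50-base words of its main transcript with Myo1h, which overlaps it on the opposite strand, Rhoa shared 25.1% with other annotated transcripts, the antisense gene Gm37401 first among them, and Rbx1 shared 9.78% with its pseudogene Rbx1-ps. Kctd13 shared 10.2%, mainly with the overlapping transcript Gm21984 on its own strand, and Rock1 shared 3.13% with Gm5374. How the authors' counting treated strand and shared reads is not stated, so reads in these shared runs cannot be assigned with certainty. The levels of Kctd10, Rhoa, Rbx1, Kctd13 and Rock1 are uncertain to that extent.

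Total counts were 21872271, 14891890 and 16038828 in duplication replicates 1 to 3, against 12988457, 14369271 and 13889329 in wild type replicates 1 to 3. Of the deposited gene names, 65.1% stood 1 to 6 lines away from their counts, among them Kctd13, Kctd10, Rhoa, Rock1 and Limk1, and values below follow re-alignment. Markers of cortical excitatory and inhibitory neurons were present in every library, with Slc17a7, the vesicular glutamate transporter gene, at 925 to 974 CPM (counts divided by the TMM-scaled library size, the CPM of edgeR) in duplication and 925 to 1141 CPM in wild type libraries. The summed level of 8 meningeal fibroblast markers was 32.1 to 64.7 CPM in duplication and 21.5 to 32.3 CPM in wild type libraries. All 8 had the higher mean in duplication, 6 of them with an unadjusted edgeR p under 0.05, and none was at 0 in all libraries. Among all tested genes, 51.0% had a log2 fold change above 0. Such a p was reached by 19.3% of them, 7.07% as higher and 12.2% as lower. All 5 astrocyte and all 5 microglia markers also had the higher mean in duplication, and all 6 oligodendrocyte markers the lower. Of these, 1 astrocyte marker had an unadjusted edgeR p under 0.05. Of 8 excitatory neuron markers, 2 had the higher mean in duplication and 2 had such a p. Of 6 inhibitory neuron markers, 3 had the higher mean in duplication and 0 had such a p. Of 5 endothelial and pericyte markers, 4 had the higher mean in duplication and 1 had such a p. Summed olfactory bulb markers stood at 33.7 CPM in wild type replicate 1, against 4.72 to 13.7 CPM in the other libraries. The part of these marker lists in the results was not tested. Wild type replicate 2 lay apart from the other wild type libraries on the first principal component (45.5% of variance), at -4.04, where the duplication libraries lay at -24.8, -17.8 and -7.23 and wild type replicates 1 and 3 at 27.2 and 26.7. The labels give no sex. The Y-linked gene Ddx3y was at 97.9 and 77.8 CPM in duplication and wild type replicate 1, where Xist was at 0, and the libraries numbered 3 had Xist at 162 and 258 CPM with Ddx3y at 0.315 and 0 CPM. The libraries numbered 2 held both, Xist at 141 and 148 CPM and Ddx3y at 5.20 and 4.93 CPM in duplication and wild type.

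Kctd13 was higher in every duplication library than in every wild type library. The gene lies on mm10 chromosome 7 from 126928879 to 126945631 on the plus strand. Its level was 74.1, 108 and 76.2 CPM in duplication replicates 1 to 3, against 51.6, 51.8 and 50.03 CPM in wild type replicates 1 to 3. The wild type libraries lay within a narrow band, and duplication replicate 2 stood well above the other duplication libraries. The mean was 86.1 ± 19.0 CPM in duplication and 51.1 ± 0.954 CPM in wild type (SD, n = 3 each), and the fitted fold was 1.68 with a 95% interval of 1.36 to 2.07. On the log2 scale this was 0.75 ± 0.13 (SE), with an interval of 0.45 to 1.05 that includes 0.585, the value that 3 copies against 2 would give.

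The test across all genes did not call Kctd13 (edgeR quasi-likelihood test, adjusted p = 0.163, unadjusted p = 0.000326), which called 0.00% of the 15401 genes, the smallest adjusted p of any gene being 0.128. Over its alternatives the adjusted p ran from 6.68e-05 to 0.457. DESeq2 called it (adjusted p = 8.83e-05), with 1.99% of all genes. So did edgeR when no genes were filtered out (adjusted p = 6.68e-05, with 3.84% of all genes called), when wild type replicate 2 was dropped (0.0107, with 15.3%), and when the pair of libraries numbered 2 was dropped (0.0101, with 8.48%). Without duplication replicate 2 the log2 fold change was 0.56, with adjusted p = 0.146. Whether each library stems from an animal of its own is not labelled, so the p-values measure the spread between these libraries. Replicates 1 and 3 of each group differed in Xist and Ddx3y, as given above.

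**Figure D1:**
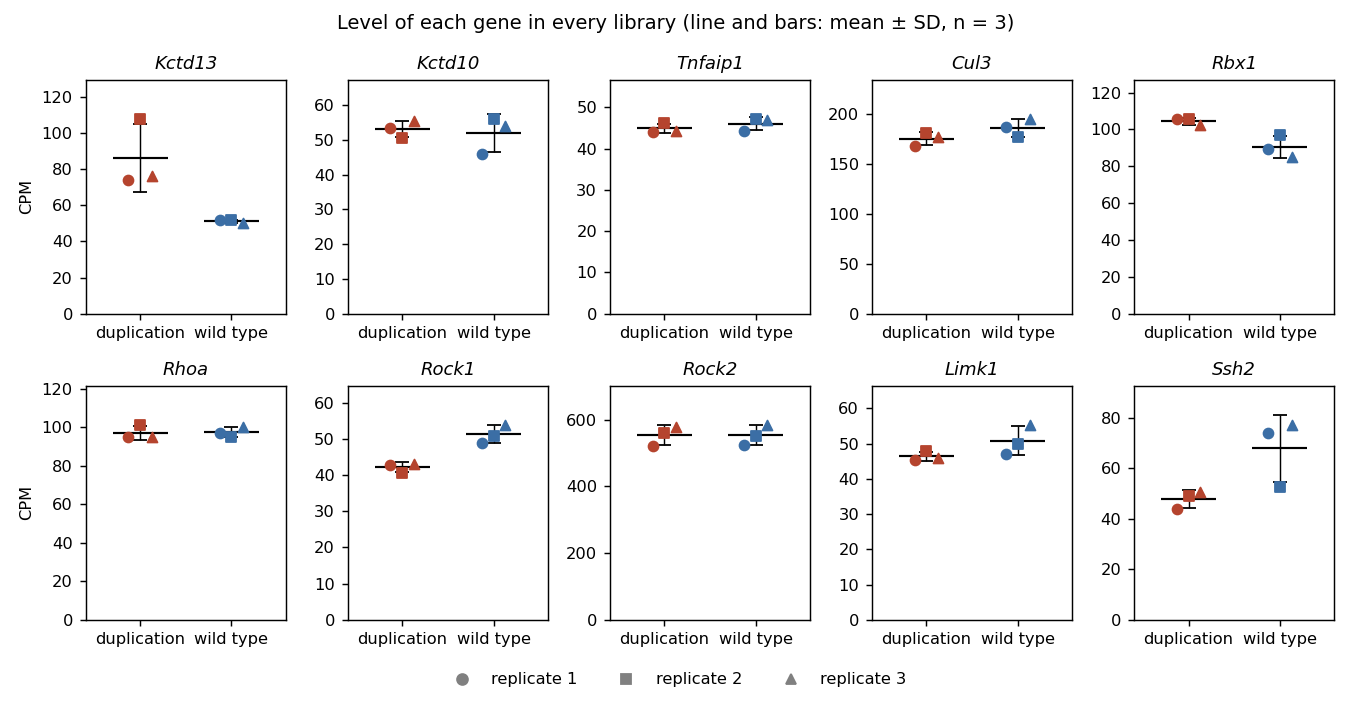
Level of each of the 10 genes in CPM in every library, duplication on the left and wild type on the right of each panel, with the mean and SD of 3 libraries in black and the replicate number as the marker. Kctd13 and Rbx1 had every duplication library above every wild type library, and Rock1 and Ssh2 every duplication library below. Among all tested genes, 11.7% had groups that did not overlap as higher and 10.5% as lower.

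Kctd13 stood close to the other genes of its segment library by library. Against the wild type mean, Kctd13 stood at 1.45, 2.11 and 1.49 in duplication replicates 1 to 3. The segment was taken as mm10 chromosome 7 from Slx1b to Spn, 126689468 to 127137823. The median of its other 23 tested protein-coding genes stood at 1.505, 2.02 and 1.55 in the same libraries, and in wild type replicates 1 to 3 it was 0.988, 1.03 and 1.02. By log2 fold change Kctd13 ranked 12 of these 24 genes, and the median of the others was 0.75. The 5 tested genes whose log2 CPM followed Kctd13 most closely over the 6 libraries were Tbc1d10b (Pearson r = 0.999), Maz (0.996), E2f5 (0.995), Doc2a (0.988) and Taok2 (0.987). With 6 libraries that fall into 2 groups, r describes how closely the log2 levels followed a straight line and is given with no test. Maz, Doc2a and Taok2 lie between Slx1b and Spn, and Tbc1d10b lies on the same chromosome beyond Spn, the end taken here. Tbc1d10b had a log2 fold change of 0.62, and whether it lies within the duplicated segment was not tested. E2f5, an E2F transcription factor gene on chromosome 3, had a log2 fold change of 0.15, against 0.62 to 0.81 for the other 4.

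Neither paralog differed by an amount near that of Kctd13. Kctd10 (chromosome 5, 114363567 to 114380508, minus strand) was at 53.5, 50.6 and 55.3 CPM in duplication replicates 1 to 3, against 45.9, 56.1 and 53.9 CPM in wild type replicates 1 to 3. Tnfaip1 (chromosome 11, 78522850 to 78536332, minus strand) was at 44.1, 46.2 and 44.3 CPM in duplication libraries, against 44.2, 47.2 and 46.8 CPM in wild type libraries. For both genes the groups overlapped. The log2 fold change was 0.03 ± 0.08 (SE) for Kctd10, with a 95% interval of -0.16 to 0.22, and -0.04 ± 0.06 for Tnfaip1, with an interval of -0.18 to 0.11 (edgeR, adjusted p = 0.865 and 0.765). Both intervals end below 0.585. Kctd10 has 37.9% of its exon bases in overlap with Myo1h.

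Kctd13 made up a larger share of the BACURD transcripts in every duplication library. Levels per kilobase of exon were used to set genes side by side, and such levels rest on the exon length used. Per kilobase of exon, Kctd13 was at 34.6 ± 7.63 CPM in duplication and 20.6 ± 0.384 CPM in wild type libraries (SD, n = 3 each). Kctd10 was at 13.2 ± 0.590 and 12.9 ± 1.33 CPM per kilobase in duplication and wild type, and Tnfaip1 at 11.9 ± 0.315 and 12.2 ± 0.442. The share of Kctd13 in the sum of the 3 was 54.5%, 63.7% and 54.7% in duplication replicates 1 to 3, against 47.4%, 44.1% and 43.9% in wild type replicates 1 to 3. The groups did not overlap, and the mean share was 57.6% ± 5.27 in duplication and 45.1% ± 1.96 in wild type, a difference of 12.5 percentage points (two-sided exact permutation test, p = 0.1, the smallest that 3 against 3 libraries allow). The sum of the 3 paralogs was 59.6 ± 7.41 CPM per kilobase in duplication and 45.6 ± 1.71 in wild type, 1.31 times as high (exact permutation p = 0.1), and Kctd10 and Tnfaip1 alone summed to 25.02 ± 0.333 CPM per kilobase in duplication and 25.05 ± 1.77 in wild type (exact permutation p = 1). These were 3 of 7 such comparisons, and the adjusted p was 0.117 for the share and the sum of 3. Both the share and the sum contain the Kctd13 level given above, so they are not results separate from it. With the length of 1 principal transcript per gene in place of all exons, the share was 60.4%, 69.3% and 60.6% in duplication and 53.7%, 50.2% and 50.05% in wild type libraries.

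**Figure D2:**
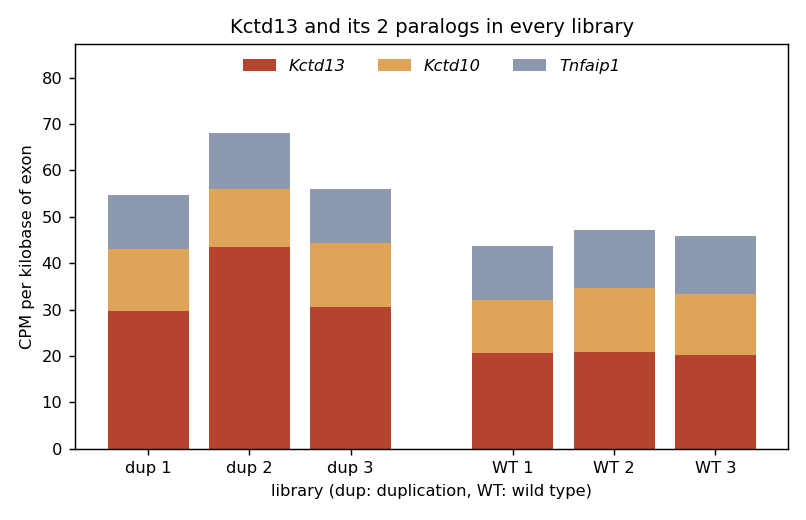
Stacked levels of Kctd13, Kctd10 and Tnfaip1 in each library, in CPM per kilobase of exon, with the 3 duplication libraries (dup) on the left and the 3 wild type libraries (WT) on the right. The Kctd13 part was 29.8 to 43.4 in duplication and 20.1 to 20.8 in wild type libraries, while Kctd10 and Tnfaip1 together averaged 25.02 in duplication and 25.05 in wild type.

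Of the ligase genes, Rbx1 was higher in every duplication library, as were 11.7% of all tested genes, and the groups overlapped for Cul3. Cul3 (chromosome 1, 80264923 to 80340480, minus strand) was at 168, 180 and 177 CPM in duplication libraries, against 187, 177 and 195 CPM in wild type libraries. Its log2 fold change was -0.09 ± 0.06 (SE), with a 95% interval of -0.23 to 0.05 (edgeR, adjusted p = 0.451). Rbx1 (chromosome 15, 81466296 to 81476369, plus strand) was at 105, 106 and 102 CPM in duplication libraries, against 89.4, 96.8 and 85.0 CPM in wild type libraries. Every duplication library was above every wild type library, with a log2 fold change of 0.21 ± 0.07, a 95% interval of 0.06 to 0.36 and an unadjusted p of 0.0113, and it did not pass over all genes (edgeR, adjusted p = 0.176).

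Set against each other per kilobase of exon, the ratio of Kctd13 to Cul3 was 0.865, 1.17 and 0.845 in duplication libraries, against 0.542, 0.574 and 0.502 in wild type libraries. With the length of 1 principal transcript per gene it was 1.24, 1.68 and 1.21 in duplication libraries, against 0.777, 0.823 and 0.720 in wild type libraries. The ratio was higher in every duplication library, and whether Kctd13 stood under or over Cul3 in duplication depended on the length. The 3 adaptors together stood at 1.66 ± 0.160 times Cul3 in duplication and 1.197 ± 0.0908 times in wild type (SD, n = 3 each; exact permutation p = 0.1, adjusted 0.117). The ratio of Kctd13 to Rhoa was 2.34, 3.21 and 2.42 in duplication libraries, against 1.601, 1.64 and 1.51 in wild type libraries. With 1 transcript per gene it was 1.02, 1.396 and 1.05 in duplication libraries, against 0.697, 0.713 and 0.655 in wild type libraries. The size of a ratio, and which gene is the higher, thus rest on the length used. A change of length multiplies the ratio of Kctd13 to Cul3 or to Rhoa by the same factor in every library. It therefore cannot change the order of the libraries. These ratios contain the same Kctd13 level and are not results separate from it. Transcript ratios do not measure protein.

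Rhoa, the GTPase at the centre of the pathway, had overlapping groups and a fold close to 1. It lies on chromosome 9 from 108306129 to 108337934 on the plus strand. Its level was 95.3, 101 and 94.9 CPM in duplication replicates 1 to 3, against 97.1, 95.2 and 100.1 CPM in wild type replicates 1 to 3. The ranges of the groups largely coincided, and the log2 fold change of -0.0049 ± 0.06 (SE) had a 95% interval of -0.14 to 0.13, which limits the fold to 0.907 to 1.09 (edgeR, adjusted p = 0.971). RhoA is regulated as a protein by BACURD ubiquitination, which RNA counts do not measure.

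The effector arm held both of the genes that were lower in every duplication library, as were 10.5% of all tested genes. Rock1 (chromosome 18, 10064401 to 10182045, minus strand) was at 42.7, 40.5 and 43.1 CPM in duplication libraries, against 48.9, 50.9 and 53.8 CPM in wild type libraries. All duplication libraries lay below all wild type libraries, at a log2 fold change of -0.28 ± 0.07 (SE; 95% interval -0.43 to -0.13, unadjusted p = 0.0023, edgeR adjusted p = 0.174). Its close relative Rock2 (chromosome 12, 16894895 to 16987823, plus strand) was at 520, 559 and 579 CPM in duplication libraries, against 525, 552 and 584 CPM in wild type libraries. For Rock2 the groups overlapped, and the log2 fold change was -0.0027 ± 0.07, with a 95% interval of -0.15 to 0.14 (edgeR, adjusted p = 0.986).

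Rock2 was by far the more abundant of the ROCK genes. Per kilobase of exon it was at 39.8 ± 2.16 CPM in duplication and 39.8 ± 2.15 CPM in wild type libraries (SD, n = 3 each), while Rock1 was at 2.33 ± 0.0783 in duplication and 2.83 ± 0.137 in wild type. Rock2 made up 94.1%, 94.7% and 94.6% of the pair in duplication libraries, against 93.3%, 93.4% and 93.4% in wild type libraries (exact permutation p = 0.1, adjusted 0.117).

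Ssh2 (chromosome 11, 77216287 to 77460220, plus strand), the cofilin phosphatase, showed the largest negative fold change of the 10 genes. It was at 43.8, 49.1 and 50.7 CPM in duplication libraries, against 73.9, 52.7 and 77.1 CPM in wild type libraries. Duplication libraries were all below wild type libraries, but wild type replicate 2 lay next to the highest duplication library and far from the other wild type libraries. The log2 fold change was -0.50 ± 0.13 (SE), a fold of 0.705 with a 95% interval of 0.572 to 0.869 (edgeR, unadjusted p = 0.00432, adjusted p = 0.174). Limk1 (chromosome 5, 134656039 to 134688598, minus strand), the kinase that acts against it on cofilin, was at 45.3, 47.9 and 46.0 CPM in duplication libraries, against 47.2, 49.9 and 55.3 CPM in wild type libraries. Its groups overlapped and its log2 fold change was -0.13 ± 0.07 (95% interval -0.30 to 0.04, edgeR adjusted p = 0.359). It was at -0.07 without wild type replicate 3 and at -0.18 without wild type replicate 1 (edgeR, unadjusted p = 0.0393, adjusted p = 0.376).

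**Figure D3:**
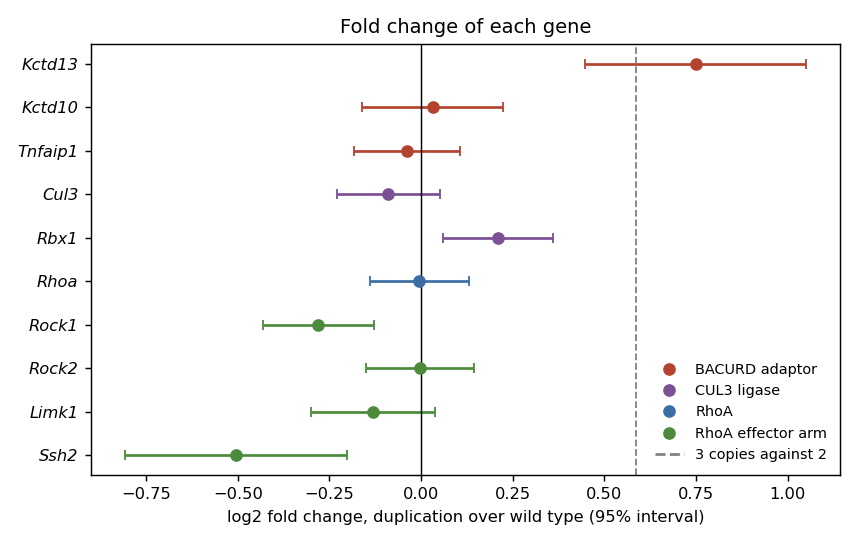
Log2 fold change of duplication over wild type for each of the 10 genes with its 95% interval from edgeR, coloured by role, with a dashed line at 0.585, the value of 3 copies against 2. The intervals of Kctd13 (0.45 to 1.05) and Rbx1 (0.06 to 0.36) lie above 0 and those of Rock1 (-0.43 to -0.13) and Ssh2 (-0.81 to -0.20) below it.

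Over the 10 genes, 0 passed the edgeR test adjusted over all genes, where 0.00% of all 15401 genes did. DESeq2 called 2, Kctd13 as higher and Ssh2 as lower (adjusted p = 0.0289). It called 1.99% of genes, 0.317% as higher and 1.68% as lower. limma-voom called 0 of the 10 and 0.00% of genes. An unadjusted edgeR p under 0.05 was reached by 4 of the 10, Kctd13 and Rbx1 as higher and Rock1 and Ssh2 as lower. Of all tested genes 19.3% reached it, 7.07% as higher and 12.2% as lower, and with upper-quartile factors it was 20.0%, 9.45% as higher and 10.5% as lower. The same 4 genes had groups of libraries that did not overlap, as had 22.2% of all genes, 11.7% as higher and 10.5% as lower. The median log2 fold change of the 10 was -0.02, and that of all tested genes was 0.0050.

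Without wild type replicate 2, edgeR called all 4 of these genes over all genes, with adjusted p of 0.0107 for Kctd13, 0.0180 for Rbx1, 0.0254 for Rock1 and 0.0019 for Ssh2, where 15.3% of all genes were called, 4.65% as higher and 10.7% as lower. Ssh2 was also called by edgeR when the pair of libraries numbered 2 was dropped (adjusted p = 0.0101, with 8.48% of all genes called) and when no genes were filtered out (0.00567, with 3.84% called). Leaving out any other single library gave no call among the 10 genes.

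Ssh2 and Rbx1 varied within wild type along with another measure of the libraries. Transcripts classed by the annotation as TEC (clusters of mostly unspliced expressed sequences) or as sense intronic had a mean level over 292 genes of -0.44, -0.43 and -0.12 in duplication libraries, as log2 CPM less each gene's mean over the 6 libraries. The wild type libraries had 0.47, -0.0004 and 0.53, so that wild type replicate 2 lay between the groups.

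Against the wild type mean, Ssh2 stood at 0.645, 0.723 and 0.747 in duplication libraries and at 1.09, 0.776 and 1.14 in wild type libraries, with wild type replicate 2 near the duplication libraries. Rbx1 stood at 1.17, 1.17 and 1.13 in duplication libraries and at 0.989, 1.07 and 0.940 in wild type libraries, with replicate 2 the highest of wild type. Rock1 stood at 0.835, 0.791 and 0.842 in duplication libraries and at 0.955, 0.993 and 1.05 in wild type libraries, with replicate 2 between the other wild type libraries. Kctd13 likewise stood at 1.01 in wild type replicate 2, the same as in replicate 1. The part of this measure in the values of Ssh2, Rbx1 and Rock1 was not tested. In tissue homogenate, fewer cells of a type and less RNA per cell cannot be told apart.

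**Figure D4:**
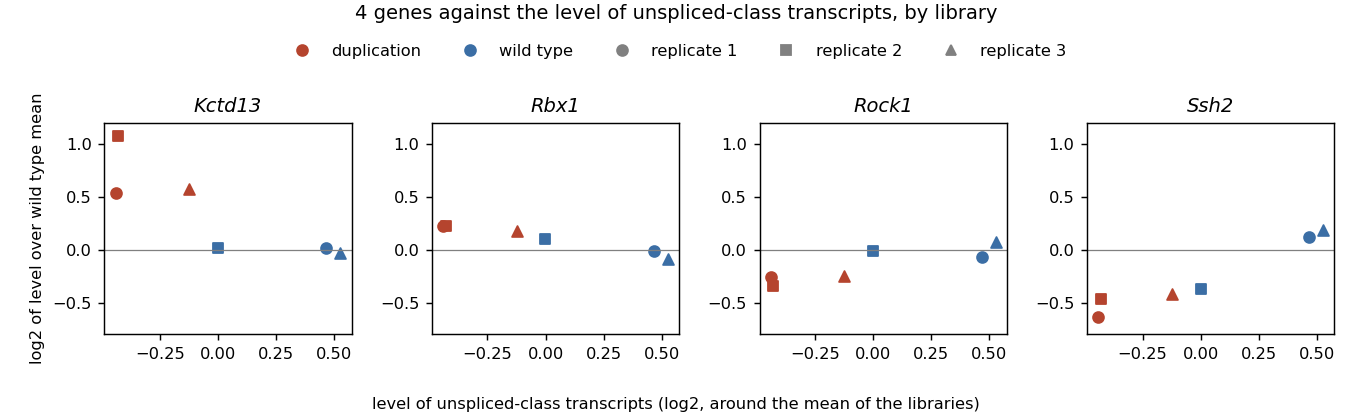
Log2 level of Kctd13, Rbx1, Rock1 and Ssh2 against the wild type mean (vertical axis) by library, against the mean of TEC and sense intronic transcripts (horizontal axis, log2 around the mean of the libraries), with duplication in red and wild type in blue. Wild type replicate 2, the blue square at -0.0004, lies beside the duplication libraries for Ssh2 and with the other wild type libraries for Kctd13.

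Per kilobase of exon, the genes in wild type cortex ran from Rock2 (39.8 ± 2.15 CPM) and Cul3 (38.2 ± 1.91), which did not differ beyond their spread, to Kctd13 (20.6 ± 0.384) and Rbx1 (19.9 ± 1.31), again within their spread. Rhoa (13.01 ± 0.334), Kctd10 (12.9 ± 1.33) and Tnfaip1 (12.2 ± 0.442) formed the next group, followed by Limk1 (7.09 ± 0.577), Ssh2 (3.67 ± 0.717) and Rock1 (2.83 ± 0.137), and the libraries of Ssh2 and Rock1 overlapped. In duplication cortex Kctd13 (34.6 ± 7.63) lay within its spread of Cul3 (35.9 ± 1.34) and above Rbx1 (23.0 ± 0.423). The order rests on the exon length used, in both groups. With 1 principal transcript per gene, Kctd13 in duplication cortex was at 51.4 ± 11.3 CPM per kilobase, within its spread of Rbx1 at 62.4 ± 1.15 and of Rhoa at 44.2 ± 1.65, and above Cul3 at 37.2 ± 1.38. With the same lengths the wild type levels ran from Rock2 at 72.4 over Rbx1 at 54.0, Rhoa at 44.4, Cul3 at 39.5 and Kctd13 at 30.5 down to Ssh2 at 7.40 CPM per kilobase.

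Beyond the 10 genes, the wider pathway was set beside all tested genes. Of 155 further genes in 5 lists, 145 could be tested. Of these, 0 passed over all genes in edgeR, where 0.00% of all 15401 genes did. An unadjusted p under 0.05 was reached by 25 (17.2%), against 19.3% of all tested genes. Of the 25, 11 were higher and 14 lower in duplication, and the median log2 fold change was 0.02. The lists were other KCTD genes, other substrate adaptors of CUL3, other cullins with the neddylation machinery that activates them, RhoA-related GTPases with their regulators, and further RhoA effectors with actin regulators.

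Of 20 other KCTD genes tested, 1 was higher and 1 lower at an unadjusted p under 0.05 (10.0%), with a median log2 fold change of 0.05. Kctd2, a further CUL3 adaptor of the family, was at 65.8, 66.5 and 61.6 CPM in duplication libraries, against 57.5, 53.8 and 51.4 CPM in wild type libraries, with a log2 fold change of 0.25 ± 0.07 (edgeR, adjusted p = 0.174). All duplication libraries lay above all wild type libraries. Kctd8, an auxiliary subunit gene of GABA-B receptors, was at 0.22 ± 0.13, and Kctd9 and Kctd21 were at -0.40 ± 0.17 and -0.10 ± 0.10.

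Of 28 other CUL3 adaptors, 3 were higher and 3 lower at an unadjusted p under 0.05 (21.4%), with a median of 0.02. Kbtbd7 and Klhl9 were at 0.18 ± 0.06 and 0.21 ± 0.08, and Spop, the adaptor of several nuclear substrates, was at -0.25 ± 0.09. Of 31 genes of cullins and neddylation, 3 (9.68%) had an unadjusted p under 0.05, all as higher. Among all tested genes it was 19.3%, 7.07% as higher and 12.2% as lower. The median was 0.10, with 25 genes above 0 and 6 below, where 51.0% of all tested genes were above 0. Uba3, the catalytic subunit of the NEDD8-activating enzyme, was at 0.21 ± 0.08 and Cops2, a subunit of the COP9 signalosome that removes NEDD8 from cullins, at 0.18 ± 0.06, while Cul9 and Cand2 were at -0.18 ± 0.09 and -0.37 ± 0.22. Without wild type replicate 2, 17 of these 31 genes had an unadjusted p under 0.05, where 31.7% of all genes did.

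Of 35 genes of RhoA-related GTPases and their regulators, 2 were higher and 6 lower at an unadjusted p under 0.05 (22.9%), with a median of -0.07. Plekhg5, an exchange factor for RhoA, was at 26.6, 30.3 and 30.2 CPM in duplication libraries, against 48.0, 34.5 and 44.8 CPM in wild type libraries. Its libraries did not overlap, wild type replicate 2 was again nearest to the duplication libraries, and the log2 fold change was -0.55 ± 0.12 (edgeR, adjusted p = 0.173). Arhgap21, a GTPase-activating protein for small GTPases, was at -0.34 ± 0.11, and the higher genes were Rnd1, an atypical small GTPase that antagonises RhoA, at 0.31 ± 0.11 and Arhgdib, a GDP dissociation inhibitor best known in blood cells, at 0.37 ± 0.15. Of 31 effectors and actin regulators, 2 were higher and 4 lower at that p (19.4%), with a median of 0.04. Msn, the membrane-actin linker moesin, was at 0.26 ± 0.11 and Cfl2, a cofilin, at 0.19 ± 0.08, and Dpysl2, a ROCK substrate in axons, at -0.25 ± 0.09.

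**Figure D5:**
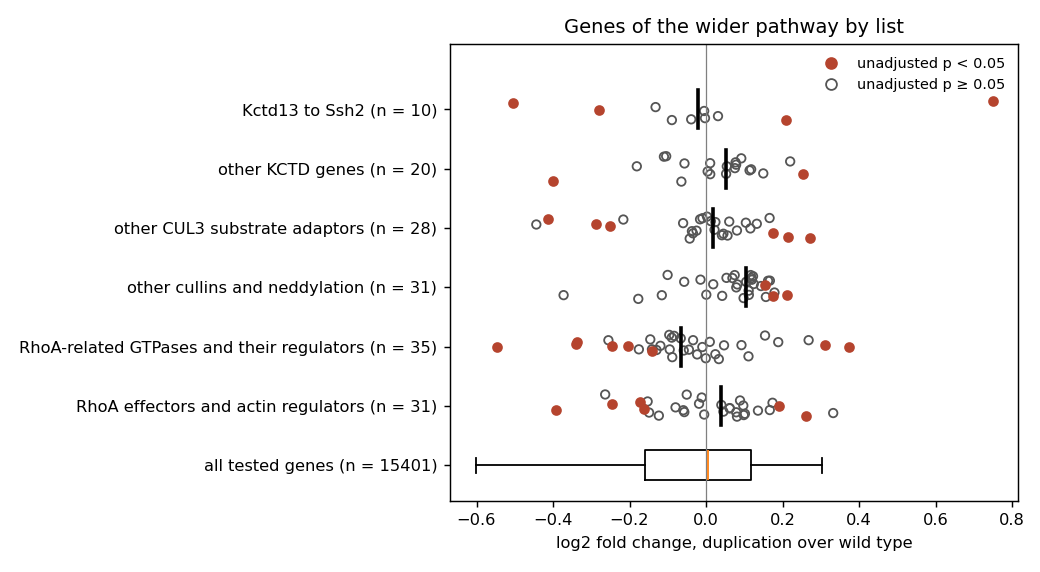
Log2 fold change of duplication over wild type for each tested gene of the 10 genes studied and of the 5 wider lists, filled where the unadjusted edgeR p was under 0.05, with the median of each list as a black bar. The box below shows the quartiles of all 15401 tested genes with whiskers at the 5th and 95th percentiles, and Kctd13 is the point at 0.75, while the highest gene of the 5 lists is at 0.37.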

How the data were processed

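RNA was measured in 3 duplication and 3 wild type libraries from a stranded total RNA kit with ribosomal RNA removal, per the labels' protocols. cutadapt, TopHat2, HTSeq and build mm10 are named in the submitters' processing notes, with no version, annotation or strand setting. Raw, unnormalized counts per gene were deposited as a joint table of 45807 lines and 45801 names, and as a table per library with the same values (0 differed).

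Names were matched to counts by 6 stated offset steps. In 83 of 83 windows of 500 lines, and in the 200 names around each of the 10 genes, counts followed the protein-coding class of the names best at the stated offset. Names within 25 lines of a step and 25 names turned into numbers were left out, with 0.902% to 0.948% of the counts.

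edgeR 4.0.16 in R 4.3.3 was run with TMM factors, filterByExpr and the quasi-likelihood F-test, with Benjamini-Hochberg adjustment over 15401 genes and a threshold of 0.05, and was tested on simulated data. Alternatives were other scaling factors, filters and zone widths, DESeq2 1.42.0, limma-voom (limma 3.58.1), a replicate block, libraries left out and names as deposited. Log2 CPM used a prior count of 2. Positions, classes and exon lengths came from GENCODE M21.

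The text names the 10 genes, of each list up to 2 higher and 2 lower genes with the smallest p, the 5 genes most like Kctd13, and markers; some genes the rule names are not reported here. Genes and lists were chosen with earlier results of these data known. Counting precision is limited by depth, and reads amplified by PCR are not separate molecules.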

Additional observations from a re-analysis of the deposited data

How the results depend on the processing

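Kctd13 kept its direction in all 18 alternatives. In 1 of these, names as deposited, its name stands beside the counts of Tmem219, also a gene of the duplicated segment. That value does not measure Kctd13. Its log2 fold change was 0.76 without a filter on low counts, 0.75 with DESeq2 and 0.57 without both libraries numbered 2, each past the threshold, and 0.56 to 0.85 when 1 library was left out. The number of the 10 genes called over all genes was 0 in edgeR with all libraries, 2 without a filter, with DESeq2 and without both libraries numbered 2, and 0 to 4 when 1 library was left out, 4 only without wild type replicate 2. Over all genes, edgeR called 0, or 1014 without a filter, 2408 without wild type replicate 2, 1320 without both libraries numbered 2 and 7 with the replicate block, and DESeq2 called 283. At an unadjusted p under 0.05 edgeR had 2966. The wider lists held 25 genes at an unadjusted p under 0.05, 16 with DESeq2 and 6 to 50 when 1 library was left out, the 50 without wild type replicate 2 and the 6 without duplication replicate 1.

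Values near 0 changed sign with no call. Rhoa was at 0.021 with upper-quartile factors, 0.010 with library size only, 0.0047 without a filter and -0.034 to 0.014 when 1 library was left out. Rock2 was at 0.023 with upper-quartile factors, 0.012 with library size only, 0.0071 without a filter and -0.040 to 0.042 when 1 library was left out. Kctd10 was at -0.049 to 0.088 when 1 library was left out. With names as deposited Rock1 was at 0.13, where its name stands beside the counts of another gene.

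With the replicate number as a block, Kctd13 was at 0.73, 0 of the 10 genes were called, and 4 of the 10 and 21 genes of the lists had an unadjusted p under 0.05. The labels tie same-numbered libraries by number only. These were alike in Xist and Ddx3y, their deviations over all genes correlated at 0.10, 0.06 and 0.31, and not every library correlated best with its own number. The difference in the Kctd13 share of the paralogs was 12.5 percentage points within numbers (exact sign-flip p = 0.25, the smallest that 3 pairs allow), 9.44 to 14.1 when 1 library was left out, 8.93 without both libraries numbered 2, and 12.1 both with counts not divided by length and with the length of 1 transcript, an alternative added after the values were seen. Depth limits the precision most for Tnfaip1, the least counted of the 10 genes, with 4232 counts over the 6 libraries.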

Other observations

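As deposited, the name Kctd10 stood beside 0 counts over the 6 libraries, against 4923 after re-alignment, and Limk1 beside 218, against 4503. The name Kctd13 stood beside 1121 counts as deposited, against 6513 after re-alignment. Those 1121 counts are matched to Tmem219, also a gene of the duplicated segment, after re-alignment, and the name Kctd13 as deposited had a log2 fold change of 0.97. Rock1 stood beside 17414 counts as deposited, against 4307 after re-alignment. The names of Tnfaip1, Cul3, Rbx1, Rock2 and Ssh2 stood beside their own counts.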
